A study of Mus musculus with 8 samples.

Results

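Semaphorins, plexins and neuropilins form a ligand and receptor system first known for steering growing axons. Semaphorins are secreted or membrane-bound ligands, plexins are their receptors, whose inner part acts on small GTPases and thereby on the cytoskeleton and on integrin adhesion, and neuropilins are co-receptors that hold class 3 semaphorins to plexins and also bind growth factors of the VEGF family. In immune cells the same proteins act in cell migration, in contacts between dendritic cells and lymphocytes, and in costimulation. The genes were chosen by name. Every probe named for a semaphorin, a plexin or neuropilin 1 or 2 was taken, which gave 31 genes with 77 probes, made up of 20 semaphorins, 9 plexins and 2 neuropilins. Of these, 27 genes (16 semaphorins, 9 plexins and both neuropilins) had at least 1 probe well above background on 4 or more of the 8 arrays and were tested among 27999 genes. The 4 left out were Sema3a, Sema3c, Sema3e and Sema7a.

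The samples were macrophages, phagocytes of the tissue, isolated by flow cytometry from tumours implanted in female mice 8 to 10 weeks old of a strain given as FvBn. Each sample was hybridised to 1 single-colour array, and 4 samples were MHCII-high and 4 MHCII-low, by the amount of MHC class II, which displays peptides to helper T cells. Both groups shared strain, sex, age range and implanted tumours. The labels give no genotype. The tumour line, the other gates of the sort and whether animals were pooled are not given in the sources used here, and the design text, which covers wild-type, KPC and FLT3-CRE/LSL-YFP animals, does not tie these 8 samples to any of them. The numbers 20435, 20436, 20439 and 20442 name 1 sample in each group. No source says what they mark or that samples came from separate animals, so the spread behind every p-value may be technical.

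Per array, 38756 to 42087 of the 56605 probes gave a signal well above background. The sort was visible in its own marker, since all 5 MHC class II genes measured were higher in MHCII-high. The macrophage genes Cd68, Csf1r, Mertk, Fcgr1, Cd14, Itgam, Lyz2 and Adgre1 were measured in both groups, and their per-array mean log2 signal was 3.71 to 4.07 in MHCII-high and 4.18 to 4.56 in MHCII-low. Of these 8 genes Adgre1 passed, at -1.69, and the other 7 did not. Other cell type markers moved with the groups too. Of 15 dendritic cell genes 12 passed as higher in MHCII-high, with a per-array mean of 0.38 to 1.53 against -1.71 to -1.19. Of 13 genes of resident and serous-cavity macrophages 10 passed as lower, with -0.36 to 1.49 against 2.66 to 3.06. Adgre1 is in this list too and is 1 of the 10. Among all genes tested 2.68% passed as higher and 2.25% as lower in MHCII-high. The part of these cell types in the differences below was not tested, and in sorted bulk samples fewer cells of a type and less RNA per cell cannot be told apart.

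Of the 27 genes 4 passed the test, the transmembrane ligand Sema4d and the receptor Plxnd1 toward MHCII-high, and the receptor Plxnb2 and the transmembrane ligand Sema6d toward MHCII-low. A gene is called here when its limma p-value, after Benjamini-Hochberg adjustment over every gene tested, is under 0.05. The 2 genes higher in MHCII-high are 7.41% of the 27, and 2.68% of all genes tested were called in that direction. The 2 higher in MHCII-low are also 7.41%, beside 2.25% of all genes. The MHCII-high and MHCII-low arrays did not overlap for 6 of the 27 (22.2%), beside 14.4% of all genes. Over the 27 genes 13 log2 differences were above 0 and 14 below, with a median of -0.0018, and the median over all genes was 0.0021. A difference of at least 2-fold was found for 4 of the 27 (14.8%) and for 9.17% of all genes.

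**Figure D1:**
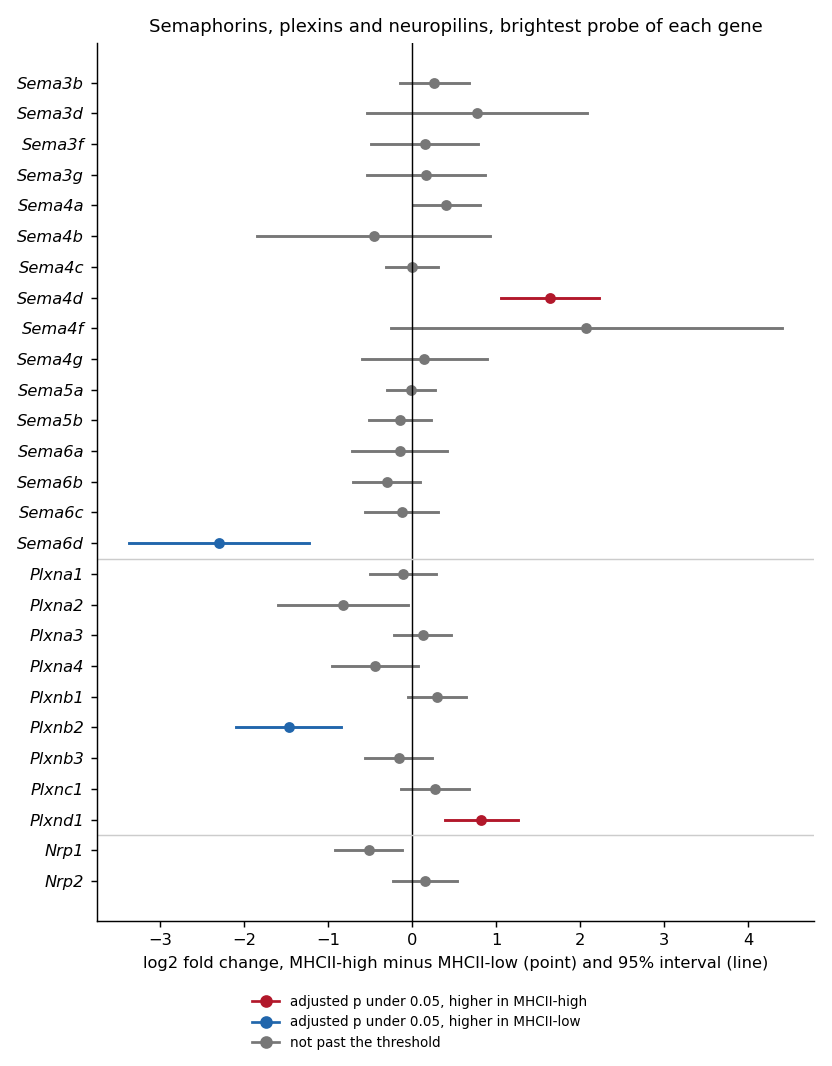
Log2 fold change of each tested semaphorin, plexin and neuropilin (x axis, MHCII-high minus MHCII-low, point) with its 95% interval (line), genes on the y axis. Sema4d and Plxnd1 lie to the right and Plxnb2 and Sema6d to the left with intervals clear of 0, and the interval of Sema4f is the widest.

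Signals are given as log2 of the processed signal relative to the 75th percentile of the array, so that 0 is that percentile itself, and values per array follow the order 20435, 20436, 20439 and 20442. Levels of different genes come from different probes and are not compared.

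Sema4d, also called CD100, is a transmembrane semaphorin of lymphocytes and myeloid cells that binds plexin B1 and, on immune cells, CD72. Its level was 2.13, 2.08, 2.24 and 1.83 in the MHCII-high arrays and 0.28, -0.11, 1.12 and 0.42 in the MHCII-low arrays. Every MHCII-high array lay above every MHCII-low array, and MHCII-low 20439 was the nearest. The means were 2.07 ± 0.18 (SD, n = 4) and 0.43 ± 0.51 (SD, n = 4), a difference of 1.64, or 3.12-fold (95% interval 2.08 to 4.68, limma adjusted p = 0.0119). A second probe of the gene gave -2.12, -1.44, -1.97 and -1.71 against -2.43, -3.57, -2.36 and -4.11, again without overlap, with a difference of 1.30 that did not pass (adjusted p = 0.111 over all probes). The call held in all 8 fits with 1 array left out (adjusted p of 0.00568 to 0.0446). The first 30 bases of both 60-base probes are shown, since they are what the measurement rests on.
Sema4d brightest probe: tttctacttggaactgtacacatttgaaaa
Sema4d second probe: tgccaaacaggccaattatgcaaaccttca
They lie on chromosome 13 of mm9, minus strand, at 51796617 to 51796676 and at 51780903 to 51780962. No exon or UTR annotation of mm9 was used here. T and B cells carry Sema4d. Of 9 T and NK cell genes measured 0 passed in limma in either direction (1 at an unadjusted p under 0.05). Their differences ran from -1.28 for Cd3g to 0.67, with a median of 0.15, and Cd3e was at -0.33. The list's per-array mean was -1.76 to -1.10 in MHCII-high and -1.85 to -1.14 in MHCII-low. The per-array mean of 5 B cell genes was 0.92, 1.23, 1.07 and 1.15 in MHCII-high against 0.27, 0.83, 0.67 and 1.12 in MHCII-low, with overlap by MHCII-low 20442. Their differences were 1.08 for Cd79a (limma adjusted p = 0.256), 0.72 for Pax5 (0.12), 0.39 for Cd79b (0.446), -0.15 for Blnk (0.786) and -0.19 for Ms4a1 (0.63). Of these 5 genes 0 passed in limma, 1 was higher in MHCII-high at an unadjusted p under 0.05, and 1 had groups without overlap. The part of lymphocytes in the Sema4d difference was not tested.

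Of the receptors of Sema4d none passed toward MHCII-high. Plxnb1, the high-affinity receptor, was at -2.12, -2.11, -2.32 and -2.19 in MHCII-high and at -2.41, -2.38, -2.35 and -2.79 in MHCII-low. The groups did not overlap, by a gap far smaller than the spread within MHCII-low, and the difference of 0.30 did not pass (1.23-fold, 0.969 to 1.56, adjusted p = 0.323). Cd72, a B cell and myeloid inhibitory receptor, was at 0.12 (adjusted p = 0.74). The remaining receptor, Plxnb2, moved the opposite way.

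Plxnb2, plexin B2, is the receptor of Sema4c and other class 4 semaphorins. Its level was 1.56, 1.58, 1.13 and 0.68 in MHCII-high and 2.79, 3.19, 2.20 and 2.65 in MHCII-low. All MHCII-low arrays were above all MHCII-high arrays. The means were 1.24 ± 0.42 (SD, n = 4) and 2.71 ± 0.41 (SD, n = 4), and Plxnb2 fell 2.77-fold in MHCII-high (95% interval 1.80 to 4.28, limma adjusted p = 0.0223). It had 1 kept probe, on chromosome 15 of mm9, minus strand, at 88985981 to 88986040, so that no other probe bears on the value.
Plxnb2 probe, first 30 bases: gaccacccaccctttttgtaaatcgtgatt
The call was lost without MHCII-high 20439 (adjusted p = 0.0705), MHCII-low 20435 (0.0630), MHCII-low 20436 (0.0512) or MHCII-low 20442 (0.0540), while the log2 difference stayed between -1.64 and -1.29 in the fits with 1 array left out.

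Sema6d is a transmembrane semaphorin that binds plexin A1, and in mouse dendritic cells and osteoclasts plexin A1 has been found together with Trem2 and the adaptor Tyrobp. Its level was -0.87, 0.11, -0.05 and -0.99 in MHCII-high and 0.57, 1.96, 2.14 and 2.74 in MHCII-low. The groups did not overlap, and MHCII-low 20435 lay well under the other 3 arrays of its group. The means were -0.45 ± 0.56 (SD, n = 4) and 1.85 ± 0.92 (SD, n = 4), and Sema6d fell 4.92-fold in MHCII-high (95% interval 2.35 to 10.3, limma adjusted p = 0.0305), the largest difference among the members that passed. A second probe gave -1.48, -1.74, -1.40 and -1.46 against -0.84, 0.68, 0.90 and 1.27, a difference of -2.02 that also passed (adjusted p = 0.0306 over all probes). Both kept probes put MHCII-low 20435 nearest to MHCII-high.
Sema6d brightest probe, first 30 bases: taaagaggacaccatccttaaaacctgatg
Sema6d second probe, first 30 bases: tattaatcccagcgtggtaactctgtgtga
They lie on chromosome 2 of mm9, plus strand, at 124490948 to 124491007 and at 124493141 to 124493200. The call of the brightest probe was lost on leaving out 6 of the 8 arrays, namely any MHCII-high array other than 20436 and any MHCII-low array other than 20435 (adjusted p of 0.0664 to 0.0838), with log2 differences of -2.73 to -2.0 over the 8 fits.

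Sema6d moved beside markers of other cells. The 10 fibroblast and stellate cell genes, which include Col1a1, Col3a1 and Lum, all had lower means in MHCII-high, 0 of them passed in limma (1 at an unadjusted p under 0.05), and their median difference was -0.89. Their per-array mean was -2.39, -0.07, 0.32 and -1.41 in MHCII-high and -0.60, 0.26, 0.71 and 0.35 in MHCII-low. Within MHCII-high the arrays 20435 and 20442 were low both in that mean and in the brightest Sema6d probe. Within MHCII-low 20435 was the lowest in both. The second Sema6d probe did not follow that mean within MHCII-high, where it ran from -1.74 to -1.40 and was lowest in 20436. Within MHCII-low it was lowest in 20435 too. The low arrays were not particular to the fibroblast list. The mean of 7 neutrophil genes was -1.08, -0.17, -0.26 and -0.93 in MHCII-high and -1.03, -0.27, -0.08 and -0.45 in MHCII-low. It was thus also low in MHCII-high 20435 and 20442 and lowest in MHCII-low 20435. The epithelial and tumour cell mean was lowest in MHCII-high 20442 and 20435 too, but in MHCII-low it was lowest in 20442. The mean of the resident and serous-cavity macrophage genes was 1.07, 1.49, 0.43 and -0.36 against 2.91, 2.80, 2.66 and 3.06. The part of any of these cell types in the Sema6d difference was not tested. Of the receptor complex described for Sema6d, Plxna1 was at -0.11 (adjusted p = 0.762), Trem2 at -0.42 (0.224) and Tyrobp at 0.02 (0.966), none past the threshold.

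**Figure D2:**
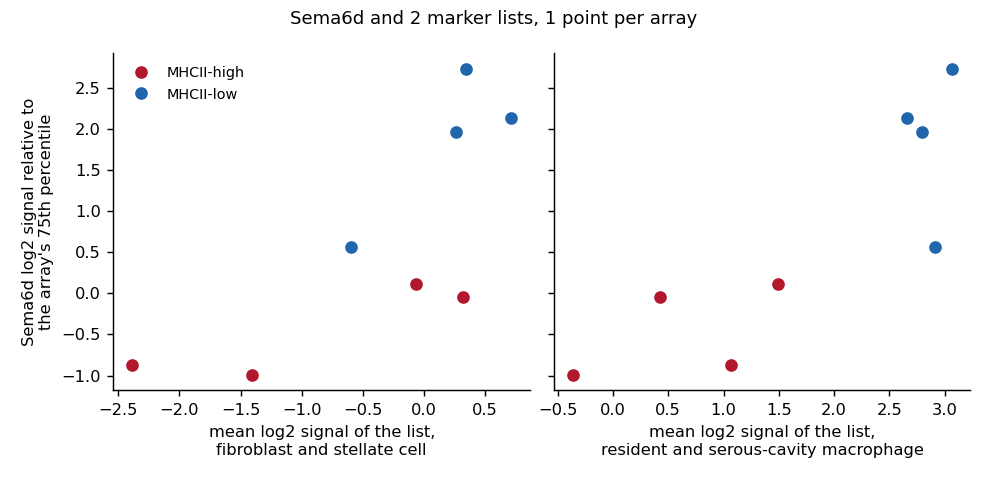
Sema6d log2 signal of the brightest probe (y axis) against the per-array mean log2 signal of 10 fibroblast and stellate cell genes (left) and 13 resident and serous-cavity macrophage genes (right), 1 point per array, red MHCII-high and blue MHCII-low. MHCII-low arrays lie above all MHCII-high arrays, and the arrays with the lowest fibroblast mean in each group are at or near the lowest Sema6d of that group. The mean of the neutrophil genes, not plotted, was lowest in the same array of each group as the fibroblast mean.

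Plxnd1, plexin D1, is best known as the Sema3e receptor of endothelial cells. Its level was 2.18, 1.89, 1.82 and 1.76 in MHCII-high and 1.26, 0.86, 0.81 and 1.44 in MHCII-low. The groups did not overlap, with MHCII-low 20442 closest to the MHCII-high arrays. The means were 1.91 ± 0.19 (SD, n = 4) and 1.09 ± 0.31 (SD, n = 4), a difference of 0.82 or 1.76-fold (1.30 to 2.38, adjusted p = 0.0483). A second probe gave 1.80, 1.55, 1.1 and 1.01 against 0.86, 0.55, 0.50 and 0.68, without overlap and with a difference of 0.71 (adjusted p = 0.0938 over all probes).
Plxnd1 brightest probe, first 30 bases: aggggaaggctgggactctctggaacattc
Plxnd1 second probe, first 30 bases: agggaatttctgcttcagccaccaagcagt
They lie on chromosome 6 of mm9, minus strand, at 115904829 to 115904888 and at 115905315 to 115905374. This call sat at the edge of the threshold: it was lost on leaving out any of the arrays except MHCII-low 20442 (adjusted p of 0.0455 there and 0.0817 to 0.115 elsewhere), and also with each array scaled to its median (0.113). Of 8 endothelial genes measured Cldn5 passed, at 1.77, while Pecam1 was at -0.46 and Cdh5 at -0.84, and Emcn and Tek had no probe well above background on 4 arrays. The per-array mean of the endothelial list was -2.70 to -2.38 in MHCII-high and -2.78 to -2.34 in MHCII-low.

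Of the ligands described for Plxnd1, Sema3e had no probe well above background on any array, and the 2 probes of Sema3c reached at most 3 arrays. Sema4a, a transmembrane semaphorin of dendritic cells that costimulates T cells and binds plexins of the B and D types and Timd2, was at 1.93, 1.81, 1.99 and 1.52 in MHCII-high and at 1.42, 1.09, 1.48 and 1.64 in MHCII-low. MHCII-low 20442 lay above MHCII-high 20442, so the groups overlapped, and the difference of 0.40 did not pass (1.32-fold, 1.005 to 1.74, adjusted p = 0.245). Timd2 was at -0.13 (0.795).

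**Figure D3:**
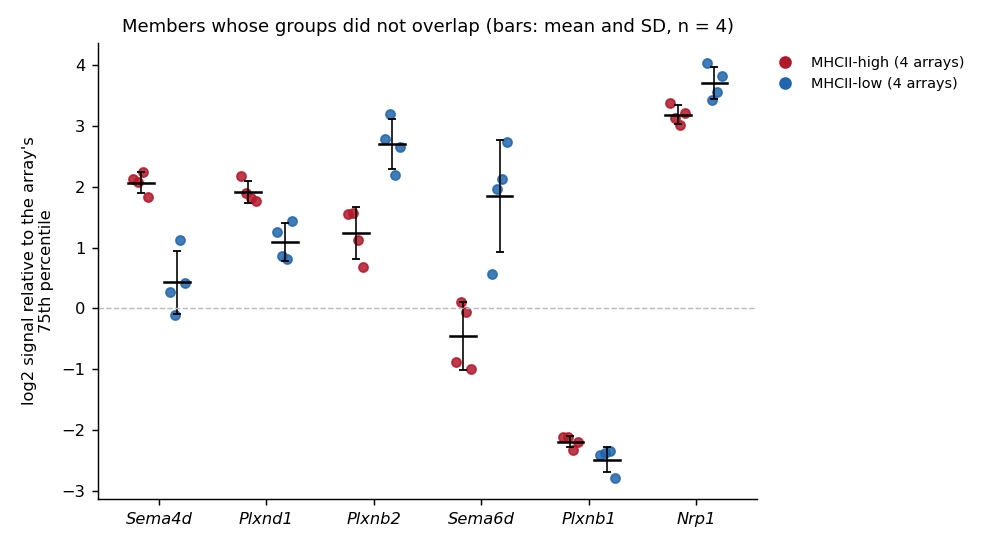
Log2 signal relative to the array's 75th percentile (y axis) of the 6 members whose groups did not overlap (x axis), 1 point per array, with mean and SD over 4 arrays. Red MHCII-high points lie above blue MHCII-low points for Sema4d, Plxnd1 and Plxnb1 and below them for Plxnb2, Sema6d and Nrp1. Plxnb1 and Nrp1 did not pass the adjusted threshold.

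The slide carried the arrays in 2 rows, with 1 MHCII-high and 3 MHCII-low arrays in row 1 and 3 and 1 in row 2, so row and group partly coincide. When limma took the row as a block, 0 of the 27 members passed in either direction, beside 1.07% of all genes for the MHCII-high and 0.554% for the MHCII-low direction. At an unadjusted p under 0.05 there were 7 members, as many as without the block. The share of all genes at that threshold is not given here, nor whether the members are the same, so nothing is read from this count. The adjusted p became 0.0538 for Sema4d, 0.0955 for Plxnb2, 0.0915 for Sema6d and 0.173 for Plxnd1. Within rows 1 and 2 the log2 differences were 1.65 and 1.65 for Sema4d, -1.15 and -1.53 for Plxnb2, -1.44 and -3.37 for Sema6d and 0.92 and 0.47 for Plxnd1. Each within-row value rests on 1 array of one of the groups and is given for its direction only. For each of these 4 genes the direction was the same in both rows, as it was for 16 of the 27 members.

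Neuropilin 1, which holds Sema3a and VEGF-A to their receptors and is carried by macrophages and endothelial cells, had a level of 3.38, 3.14, 3.02 and 3.21 in MHCII-high and 4.03, 3.43, 3.56 and 3.82 in MHCII-low. No array of one group reached the other, and the difference of -0.52 did not pass (1.44-fold, 1.09 to 1.89, adjusted p = 0.134). Its other 2 kept probes gave -0.69 (adjusted p = 0.15 over all probes) and -0.73 (0.111), so all 3 kept probes had the same sign and similar size. They lie on chromosome 8 of mm9, plus strand, with the brightest at 131027137 to 131027196.

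Neuropilin 2, the co-receptor of Sema3f and VEGF-C, depended on the probe. The brightest probe, the one that stands for the gene, was at 6.01, 5.85, 6.26 and 6.38 in MHCII-high and 5.93, 5.91, 5.86 and 6.19 in MHCII-low, with overlapping groups and a difference of 0.15 (1.11-fold, 0.855 to 1.44, adjusted p = 0.663). A second probe was at 2.25, 2.08, 1.92 and 1.92 against 2.56, 2.28, 2.68 and 3.19, without overlap and with a difference of -0.64 (adjusted p = 0.13 over all probes). The remaining probe was at -1.47, -1.55, -2.93 and -2.86 against -0.67, -1.41, -1.85 and -0.87, with a difference of -1.0 (0.229). The sequences are shown with any stretch of at least 20 bases in which G and T alternate in capitals. The stretch takes up bases 27 to 54 of the brightest probe, of which bases 27 to 56 are shown, and the others show bases 1 to 30.
Nrp2 brightest probe: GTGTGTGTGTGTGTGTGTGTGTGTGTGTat
Nrp2 second probe: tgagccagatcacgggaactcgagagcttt
Nrp2 remaining probe: tgacagaacatttccagatgacaagaactt
On chromosome 1 of mm9, plus strand, they lie at 62843061 to 62843120, 62865129 to 62865188 and 62818403 to 62829910, the last interval being longer than the 60-base probe. The same kind of stretch was found in the brightest probe of Sema4c, a transmembrane ligand of plexin B2, where it spans 23 bases and bases 3 to 32 are shown.
Sema4c brightest probe: TGTGTGTGTGTGTGTGTGTGTGTtgtaact
Sema4c second probe: tgcaaggaagaggtttcaagatgtgggcgt
Sema4c remaining probe: tggactgaagtttagaccctgggtgtctgc
These lie on chromosome 1, minus strand, at 36605998 to 36606057, 36606063 to 36606122 and 36612857 to 36612916. The brightest was at 6.38, 6.16, 6.16 and 6.47 against 6.22, 6.25, 6.30 and 6.39, and its difference was -0.0018 (adjusted p = 0.996). The second and the remaining one gave -0.35 and 0.53 (0.242 and 0.377 over all probes), so the direction of Sema4c was not settled. Only these 2 of the 46 kept member probes held a stretch of at least 20 bases in which any 2 bases alternate. Of all 41181 kept probes 94 did (0.228%), a count that takes in every pair of bases and not G and T alone. The median size of the log2 difference was 0.053 over those 94 probes and 0.28 over all kept probes. The stretch was looked for after the values had been seen, and its part in the small differences was not tested.

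**Figure D4:**
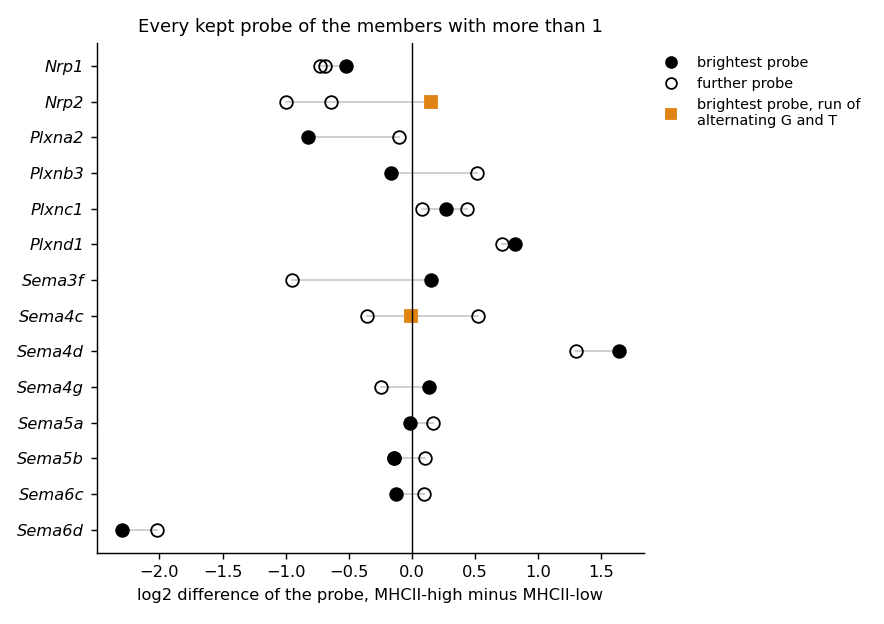
Log2 difference between MHCII-high and MHCII-low (x axis) for every kept probe of the 14 members with more than 1 kept probe (y axis), filled for the brightest probe and open for the others. The brightest probes of Nrp2 and Sema4c (orange squares) hold a stretch of alternating G and T, and the other probes of Nrp2 lie at -0.64 and -1.0.

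Of the 14 members with several kept probes, all probes had the same sign for 6: Sema4d, Sema6d, Plxnd1, Plxna2, Plxnc1 and Nrp1. Sema4d, Sema6d and Plxnd1 are called members, and the remaining called member, Plxnb2, is one of 13 members with a single kept probe. For the remaining 8 the probes differed in sign, with values of -0.16 and 0.52 for Plxnb3 and 0.15 and -0.95 for Sema3f, the ligand of neuropilin 2.

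Of the 7 secreted class 3 semaphorins 4 could be tested, and 0 of them passed in limma, with 0 at an unadjusted p under 0.05. All 4 differences of the brightest probes were above 0, but a second Sema3f probe was at -0.95. That of Sema3g could change sign with 1 array left out. Sema3d, which binds neuropilin 1, was at -4.19, -4.71, -4.69 and -4.73 in MHCII-high and at -4.20, -4.67, -5.33 and -7.18 in MHCII-low, above background on all 4 MHCII-high arrays and on 2 MHCII-low arrays. The groups overlapped, and the difference of 0.77 did not pass (1.70-fold, 0.686 to 4.22, adjusted p = 0.508). It was 0.10 with another background correction, normexp. Sema3b was at 0.26, Sema3g at 0.16 and Sema3f at 0.15 (adjusted p of 0.47, 0.813 and 0.812). Sema3a, the classical ligand of neuropilin 1 and the A plexins, was well above background on at most 1 array with any of its 3 probes. Sema7a, a membrane-anchored semaphorin that binds plexin C1 and integrin beta 1, was so on 2 MHCII-high arrays and on no MHCII-low array, and no fold is given.

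Among the other class 4 semaphorins, Sema4f had a wide spread. It was at -6.74, -3.94, -2.48 and -2.04 in MHCII-high and at -5.80, -7.50, -5.20 and -5.00 in MHCII-low, and was well above background on 3 MHCII-high arrays and 1 MHCII-low array. Its difference of 2.07 is larger than that of Sema4d, but MHCII-high 20435 lay under 3 MHCII-low arrays, the 95% interval was 0.838-fold to 21.1-fold, and the adjusted p was 0.308. With normexp the difference was 0.77. Sema4b was at -3.07, -2.03, -2.99 and -3.58 in MHCII-high and at -4.24, -2.42, -1.37 and -1.81 in MHCII-low. These groups overlapped too, with a difference of -0.46 (adjusted p = 0.728). Sema4g was at 0.14 (0.852).

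The class 5 semaphorins carry thrombospondin repeats. Sema5a was at -0.01 (1.01-fold, 0.83 to 1.23, adjusted p = 0.963) and Sema5b at -0.14 (1.1-fold, 0.854 to 1.43, 0.676). In class 6 all 4 differences of the brightest probes were below 0, and Sema6d alone passed. Those of Sema6a and Sema6c could change sign with 1 array left out, and a second Sema6c probe was at 0.09. Sema6b, a ligand of plexin A4, was at 1.13, 1.29, 0.99 and 1.09 in MHCII-high and at 1.74, 1.61, 1.14 and 1.22 in MHCII-low. The groups overlapped and the difference of -0.31 did not pass (adjusted p = 0.386). Sema6a was at -0.15 (0.782) and Sema6c at -0.12 (0.767).

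The A plexins, the main partners of neuropilins and class 6 ligands, had differences of -0.82 to 0.12, and 0 of 4 passed in limma, with 1, Plxna2, at an unadjusted p under 0.05. Plxna2 was at -5.29, -3.99, -3.94 and -4.08 in MHCII-high and at -3.43, -3.22, -3.29 and -4.07 in MHCII-low. MHCII-low 20442 lay among the MHCII-high arrays, and the difference of -0.82 did not pass (1.77-fold, 1.03 to 3.02, adjusted p = 0.225). A second Plxna2 probe gave -0.10. Plxna4 was at -2.86, -3.37, -3.18 and -3.51 against -3.18, -2.40, -2.58 and -2.99, a difference of -0.44 with overlapping groups (adjusted p = 0.323). Plxna3 was at 0.12 (0.7). Plxnc1, the receptor of Sema7a, was at -0.44, -0.40, -0.14 and -0.61 in MHCII-high and at -0.39, -0.60, -0.67 and -1.0 in MHCII-low. Its groups overlapped, and 3 probes gave 0.27, 0.43 and 0.08, with an adjusted p of 0.45 for the brightest. Plxnb3, a receptor of Sema5a, was at -0.16 (0.656).

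Genes that work with this system, and genes of other guidance families, were read from 4 lists of 110 genes, of which 102 were tested. Of these 11 passed, 4 with more signal in MHCII-high (3.92%) and 7 with less (6.86%), beside 2.68% and 2.25% of all genes. Ntn4, Efnb2 and Epha2 of the 11 come from the other guidance families, which are not part of this system. Ntn4, 1 of the 4, passed the filter on dim probes through the group where it is high. The lists were also chosen with earlier results of these data known, so nothing is read from these shares. The median difference over the 102 genes was -0.12. Among 15 non-plexin receptors and co-receptors of semaphorins 0 were higher (2 at an unadjusted p under 0.05) and 2 were lower in MHCII-high in limma. Mst1r, the RON kinase that can associate with B plexins, was at -3.87, -3.89, -4.16 and -3.76 against -1.93, -2.63, -2.55 and -2.56, without overlap, and fell by 1.5 on the log2 scale (2.83-fold, 2.09 to 3.84, adjusted p = 0.00578), or by 0.79 with normexp background correction. Sdc3, the heparan sulphate proteoglycan syndecan 3, was at 2.36, 2.25, 1.99 and 1.84 against 3.18, 2.93, 2.85 and 3.10 and fell by 0.91 (1.88-fold, 1.44 to 2.44, adjusted p = 0.0208). Met, the hepatocyte growth factor receptor and another partner of B plexins, was at 0.84 (adjusted p = 0.199), and Itgb1, the integrin chain bound by Sema7a, at -0.53 (0.0943).

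Of 43 plexin signalling proteins 2 were higher and 2 lower in MHCII-high, and the list's median was -0.06. Tiam1, an activator of Rac, rose by 1.94 (3.83-fold, 1.87 to 7.84, adjusted p = 0.0491), from -1.06, -2.45, -1.77 and -3.43 in MHCII-low to -0.11, -0.12, -0.11 and -0.62 in MHCII-high, and the difference was 1.3 with normexp. Sh3bp1, which inactivates Rac, rose by 0.81 (1.75-fold, 1.32 to 2.31, adjusted p = 0.0397). Arhgef12 (LARG), the exchange factor that couples B plexins to RhoA, was at -1.71, -1.87, -1.76 and -2.61 in MHCII-high against -0.43, -0.60, -0.34 and -0.18 in MHCII-low. It fell by 1.6 (3.03-fold, 2.12 to 4.32, adjusted p = 0.00824) and thus lay on the same side as Plxnb2. Its relative Arhgef11 was at -0.35 (adjusted p = 0.386). Dpysl3, of the collapsin response mediator family named after the semaphorin collapsin, was at -0.57, 0.06, -0.25 and -1.55 against 1.66, 1.57, 1.54 and 1.43 and fell by 2.13 (4.37-fold, 2.64 to 7.23, adjusted p = 0.00996). The groups of these 4 genes did not overlap.

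**Figure D5:**
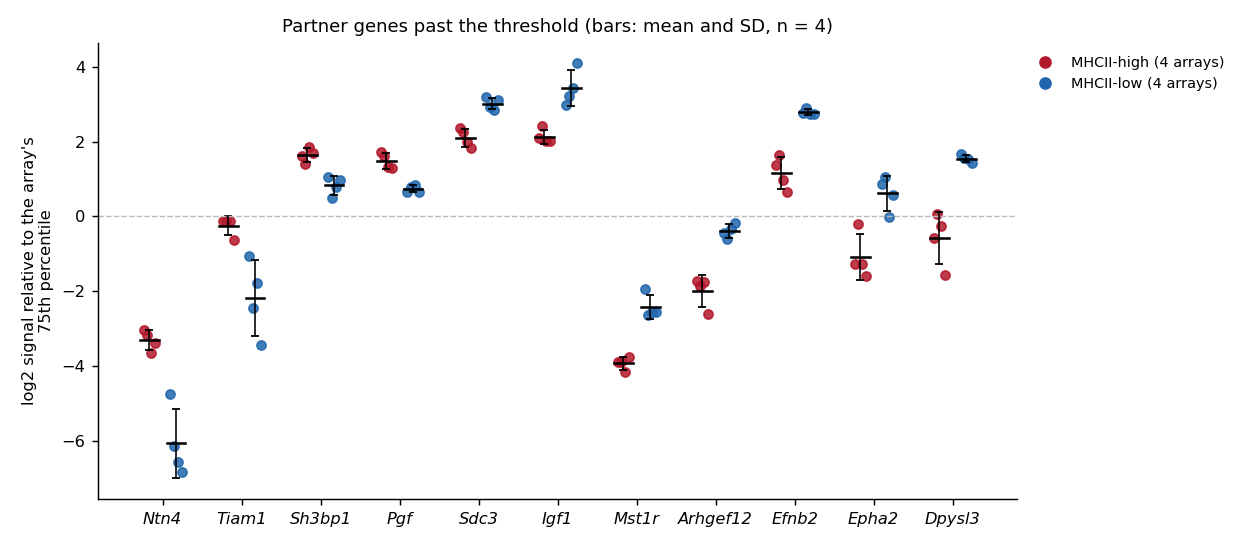
Log2 signal relative to the array's 75th percentile (y axis) of the 11 listed genes that passed the threshold (x axis), 1 point per array, red MHCII-high and blue MHCII-low, with mean and SD over 4 arrays. Ntn4, Efnb2 and Epha2 belong to other guidance families. Red points lie above blue ones for Ntn4, Tiam1, Sh3bp1 and Pgf and below them for the other 7, and no gene has overlapping groups.

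Growth factor partners of neuropilins had 1 gene higher and 1 lower of 14. Pgf, placental growth factor, which binds neuropilin 1, was at 1.72, 1.62, 1.33 and 1.29 against 0.65, 0.79, 0.84 and 0.67 and rose by 0.76 (adjusted p = 0.0288), whereas Igf1, insulin-like growth factor 1, was at 2.09, 2.41, 2.01 and 2.01 against 2.98, 3.22, 3.43 and 4.09 and fell by 1.30 (adjusted p = 0.023). Vegfa was at -0.16 (adjusted p = 0.543). Of 32 genes of other guidance families 1 was higher and 2 were lower. Ntn4, the matrix protein netrin 4, was at -3.04, -3.17, -3.65 and -3.37 against -4.74, -6.12, -6.56 and -6.82, well above background on all 4 MHCII-high arrays and on 1 MHCII-low array, and rose by 2.75 (adjusted p = 0.0111), or by 0.81 with normexp. Its probe was kept through the MHCII-high arrays, where it is high, so no weight is put on its call or p-value. The size of its difference is uncertain, and it was left out under the filter on all 8 arrays. Efnb2, the ephrin B2 ligand of Eph receptors, fell by 1.63 (3.08-fold, 2.18 to 4.36, adjusted p = 0.00682), with 1.36, 1.65, 0.98 and 0.66 against 2.77, 2.91, 2.73 and 2.74. Epha2, an Eph receptor, fell by 1.71 (3.26-fold, 1.90 to 5.61, adjusted p = 0.029). Mst1r, Arhgef12, Dpysl3 and Efnb2, measured on all 8 arrays, also passed with the slide row in the fit and in all 8 fits that left out 1 array. Besides Ntn4, the other 6 lost the call with the slide row and in at least 3 of those 8 fits, where the highest adjusted p in limma was 0.127 for Tiam1, 0.116 for Sh3bp1, 0.0872 for Epha2, 0.0854 for Pgf, 0.0732 for Igf1 and 0.071 for Sdc3.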

How the data were processed

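The deposited scanner files hold the red (Cy5) intensity of each spot on a linear scale, read out by Agilent Feature Extraction 11.5.1.1. The processed signal used here had its background subtracted by that software, per the file headers. Per the labels' protocols, amplification used the Sigma-WTA2 kit. The deposited series table holds log2 values that correlated at 0.999996 or more with a quantile normalization of those intensities computed here, and served as an alternative. Per the file headers, 1 slide carried all arrays and was scanned in 1 go. With 4 arrays a group, precision is limited by array number.

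Controls and outlier spots were dropped (no spot was saturated), each array's 75th percentile of log2 processed signal was subtracted, and replicate spots were averaged. A probe was kept if well above background on 4 or more arrays (41181 probes), and the brightest stood for its gene. Groups were compared with limma 3.58.1 (lmFit and eBayes, R 4.3.3), two-sided, without covariates, and adjusted by Benjamini-Hochberg over 27999 genes at 0.05, or over all kept probes for further probes. The fit was checked on simulated data with independent arrays and no effect of slide row or label number, so that check does not bear on either. Probe coordinates are those of the files (mm9). Names of members are those of the files, and Plxna4os1 and Plxna4os2, which begin alike, were not taken.

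Members passing the test and the 10 others with the largest differences are given per array, the rest by difference, except that Nrp2 and Sema4c are given per array, chosen after their values were seen. Of the lists, genes past the threshold and set receptors are named. Members and lists were chosen with earlier results of these data known. Of the B cell markers 1 is not reported here. Alternatives were median scaling, quantile normalization, normexp (offset 50), the deposited table, no dim filter, a filter on all 8 arrays, the mean of probes, slide row or label number as a block, each array left out, and further probes, the last added after seeing the data.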

Additional observations from a re-analysis of the deposited data

Results flagged for a closer look

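Among the 54 groups of 4 arrays (27 members, 2 groups), 4 held 1 array far from the other 3 by Dixon's criterion at 95%, which chance gives in about 1 in 20 groups. Sema3d was at -4.19 in MHCII-high 20435, with the other MHCII-high arrays between -4.73 and -4.69. Plxna2 was at -5.29 in MHCII-high 20435, with the others at -4.08 to -3.94. Sema5b was at -0.006 in MHCII-high 20435, with the others at 0.20 to 0.23. Plxnb1 was at -2.79 in MHCII-low 20442, with the others at -2.41 to -2.35. Of the 4, 3 were the same array, MHCII-high 20435, and none of the 4 genes passed the test between the groups.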

How the results depend on the processing

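The tested results were the counts of called genes and the log2 differences of the named genes. The count of genes past the threshold was 1381, and it was 455 when slide row was a block and 809 under the replicate block (label number). Leaving out 1 array gave 547 (without MHCII-high 20439) to 1160. These are totals of each fit and do not say how many of the 1381 stayed. Counts under the other settings stayed within 1.5 times. Of the 27 members, 2 were higher in MHCII-high, and 1 was under median scaling, without the dim filter, with the mean of probes and with the replicate block, 0 with the row block, and 1 to 2 with an array left out, the second call, Plxnd1, being kept only without MHCII-low 20442. Of members higher in MHCII-low there were 2, then 0 with the row block, 1 with the replicate block and 0 to 2 with an array left out, 0 without MHCII-high 20439, MHCII-low 20436 or MHCII-low 20442. The count of partner genes past the threshold, with the other guidance families included, was 11, then 5 with the row block, 8 with the replicate block and 5 to 8 with an array left out. These too are totals of each fit, which can hold partner genes outside the 11. Of the 11, the replicate block lost Igf1 (adjusted p = 0.0699), Pgf (0.0918), Sdc3 (0.0608), Sh3bp1 (0.0731) and Tiam1 (0.0502). The cause of these losses was not tested, and fits with an array left out have fewer samples. Same-numbered samples correlated in their deviations from the group means at 0.188, 0.127, 0.210 and 0.083, each highest with its own number, which is a hint from the data and not from the design. They were not treated as pairs, and the replicate block kept Sema4d (adjusted p = 0.0308) and Plxnb2 (0.0319) and lost Sema6d (0.0506) and Plxnd1 (0.0969). Small differences changed sign. With the mean of probes Nrp2 was -0.4953, Plxnb3 0.1792, Sema3f -0.4021, Sema4c 0.0564, Sema4g -0.0496, Sema5a 0.0751, Timd2 0.0989 and Vegfa 0.2195. With the row block Nrp2 was -0.0143 and Tyrobp -0.1392, and with median scaling Tyrobp was -0.0541. With normexp Sema4c was 0.0324, Sema4g -0.0274 and Sema5a 0.0083, and Sema5a was 0.0053 with quantile normalization and 0.0395 in the deposited table. Further probes gave -0.6366 and -0.9997 for Nrp2, 0.5215 for Plxnb3, -0.9532 for Sema3f, 0.5251 for Sema4c, -0.2396 for Sema4g, 0.165 for Sema5a, 0.1059 for Sema5b and 0.094 for Sema6c. With 1 array left out, Plxna1 ranged from -0.1771 to 0.0019, Sema3g ranged from -0.0002 to 0.3888, Sema4c ranged from -0.0609 to 0.0431, Sema4g ranged from -0.1374 to 0.3076, Sema5a ranged from -0.0605 to 0.0249, Sema6a ranged from -0.3424 to 0.0629, Sema6c ranged from -0.2057 to 0.0127, Timd2 ranged from -0.2408 to 0.0530 and Tyrobp ranged from -0.1063 to 0.1243. Each of these genes missed the threshold in every fit. The 4 called members kept their sign under every alternative. Dim probes limit Sema4f, Sema3d and Plxna2, each above background on 4 to 7 arrays.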
